A study of Rattus norvegicus with 24 samples.

Results

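The genes described here are 10 neuropeptide genes known from nuclei of the hypothalamus, namely Pmch, Hcrt, Npy, Agrp, Cartpt, Trh, Crh, Gal, Gnrh1 and Ghrh. A probe set was taken for a gene where the platform annotation gave that gene's symbol and no other. By this rule 9 of the 10 genes had a probe set, which made 10 of the 31099 probe sets on the array and 9 of the 14218 genes with a probe set of their own. No probe set was matched for Agrp, which was not analysed here. Gnrh1 had 2 probe sets, and the values below are those of the brighter one unless the other is named.

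RNA from tissue labelled midbrain was hybridized to 24 Affymetrix rat arrays, 1 sample per array, 12 from paced mated and 12 from chamber-exposed female Long–Evans rats. In paced mating the female could leave the male through a hole in a partition, and the chamber-exposed rats were placed in a clean chamber of the same kind without mating. The arrays made 4 sets of 6, each with 3 paced mated and 3 chamber-exposed samples: gonadally intact rats with sample titles that are numbers (number-named arrays), gonadally intact rats with titles beginning with Intact (Intact-named arrays), ovariectomized (OVX) rats, and ovariectomized and adrenalectomized (OVX/ADX) rats. The rats were 50 to 60 days old, the intact rats were in proestrus, and the OVX and OVX/ADX rats received 10 μg of estradiol benzoate 44 h before a test held 10 days after surgery. The tissue was a gross dissection made from the ventral side of the brain, with the optic chiasm as its front border and the pons as its rear border. The study's methods describe 6 intact rats that were tested, whereas 12 arrays carry the intact label, and they describe 1 OVX/ADX rat that died during surgery. Of the 6 OVX/ADX arrays, 2541 and 2530 have titles numbered like those of the number-named arrays, although their labels give OVX/ADX. Nothing in the labels ties an array to a single rat, so the p-values below measure the spread between these arrays, which may be technical.

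Neuropeptides are short signalling chains cut from larger precursor proteins and released by neurons alongside fast transmitters. Many of those made in the hypothalamus come from a small number of cells gathered in 1 nucleus, so that the mRNA of the precursor marks the nucleus as well as the peptide. Melanin-concentrating hormone (Pmch) and hypocretin, also called orexin (Hcrt), are made by neurons of the lateral hypothalamus and act on feeding, arousal and sleep. Thyrotropin-releasing hormone (Trh) and corticotropin-releasing hormone (Crh) neurons of the paraventricular nucleus drive the thyroid and adrenal axes through the pituitary. Agouti-related peptide (Agrp), neuropeptide Y (Npy) and growth hormone-releasing hormone (Ghrh) are made in the arcuate nucleus, and gonadotropin-releasing hormone (Gnrh1) is made by scattered neurons of the preoptic area and anterior hypothalamus. Npy, Crh, Cartpt and Gal are also made well outside the hypothalamus, Npy and Crh in cortical interneurons and Cartpt in the midbrain.

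The upstream promoter sequences of 4 of the genes are shown because these genes moved together between the sets of arrays and because each window holds 1 of the 3 motifs that were searched. The sequences are from RefSeq on assembly GRCr8, are the 150 bases before the annotated start site read 5′ to 3′ on the minus strand of the assembly, and have the motif in capitals. They are the TATA box TATAAA in Hcrt and Gal, the cyclic AMP response element TGACGTCA in Cartpt, and the hormone response half-site AGGTCA, shared by many nuclear receptors, in Trh, where it lies on the opposite strand and is read as TGACCT.
Hcrt, chr10:86191525-86191674: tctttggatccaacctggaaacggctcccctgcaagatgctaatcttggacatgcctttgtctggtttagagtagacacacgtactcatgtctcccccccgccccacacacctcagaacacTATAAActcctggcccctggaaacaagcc
Cartpt, chr2:32991236-32991385: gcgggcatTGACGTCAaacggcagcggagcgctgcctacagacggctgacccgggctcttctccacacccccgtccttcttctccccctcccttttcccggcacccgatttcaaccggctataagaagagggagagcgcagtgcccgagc
Trh, chr4:126301763-126301912: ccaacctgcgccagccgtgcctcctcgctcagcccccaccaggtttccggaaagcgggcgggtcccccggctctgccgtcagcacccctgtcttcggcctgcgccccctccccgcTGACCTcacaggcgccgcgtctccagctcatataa
Gal, chr1:210084573-210084722: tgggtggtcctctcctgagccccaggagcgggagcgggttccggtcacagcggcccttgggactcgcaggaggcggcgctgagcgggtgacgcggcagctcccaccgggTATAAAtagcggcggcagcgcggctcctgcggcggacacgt
Over all 33469 promoter windows of 300 bases around the start site, searched on both strands, TATAAA was found in 14.2%, TGACGTCA in 1.83% and AGGTCA in 16.2%. A match is a description of the letters in the window and not evidence of a bound factor, and 7 of the 10 genes had a promoter entry that could be searched. The windows of Npy, Agrp and Ghrh held none of the 3 motifs, although Ghrh moved with the genes shown. No array measured promoters, and the values below are of mRNA.

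The deposited values are log2 signals, and the lowest signal on an array fell in 3 ranges, called runs below: it was 3.58 to 3.65 for number-named, 2.30 to 2.39 for Intact-named and OVX, and 3.38 to 3.43 for OVX/ADX arrays. Gland state and run therefore cannot be told apart for OVX/ADX, and only the Intact-named and OVX arrays, which share a run, gave a comparison of gland groups. The titles of the Intact-named and OVX arrays begin with different number prefixes, whose meaning is not given. Prefix and gland state cannot be told apart in that comparison. On the deposited scale the median probe set was 0.39 lower on the OVX/ADX than on the number-named arrays and 0.11 higher on the number-named than on the Intact-named arrays, and after quantile normalization of all 24 arrays the same medians differed by 0.01 and −0.03. Quantile-normalized values were used for differences between runs, and deposited values within a run. The labelled tissue was checked against lists of marker genes, of which each list's median percentile rank among all probe sets of an array is given here. For 8 dopamine neuron markers the number-named arrays had 75.4 to 89.5, OVX/ADX 70.3 to 84.1, Intact-named 37.1 to 53.4 and OVX 39.0 to 70.6. Cortex and hippocampus markers ran the other way, at 45.1 to 62.9, 47.8 to 51.3, 71.3 to 82.3 and 66.9 to 84.2 in the same order. In tissue of this kind, fewer cells of a type and less RNA per cell cannot be told apart.

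Of the 9 genes measured, 6 were higher and 1 was lower on every number-named and OVX/ADX array than on every Intact-named and OVX array, on the quantile-normalized scale. The 6 were Pmch, Hcrt, Cartpt, Gal, Trh and Ghrh, and the gene that was lower was Npy. Ghrh was kept by the filter on low signals only through the 12 arrays on which it is high. Its place among the 6 was therefore partly set by that filter. Non-overlap of this kind held for 41.2% of all probe sets tested. The gap between the lowest array of the higher 12 and the highest array of the lower 12 was 5.34 on the log2 scale for Pmch, 3.07 for Hcrt, 2.64 for Cartpt, 1.26 for Gal, 1.12 for Ghrh, 0.30 for Trh and 0.25 for Npy. Crh and Gnrh1 overlapped between the 12 and the 12.

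**Figure D1:**
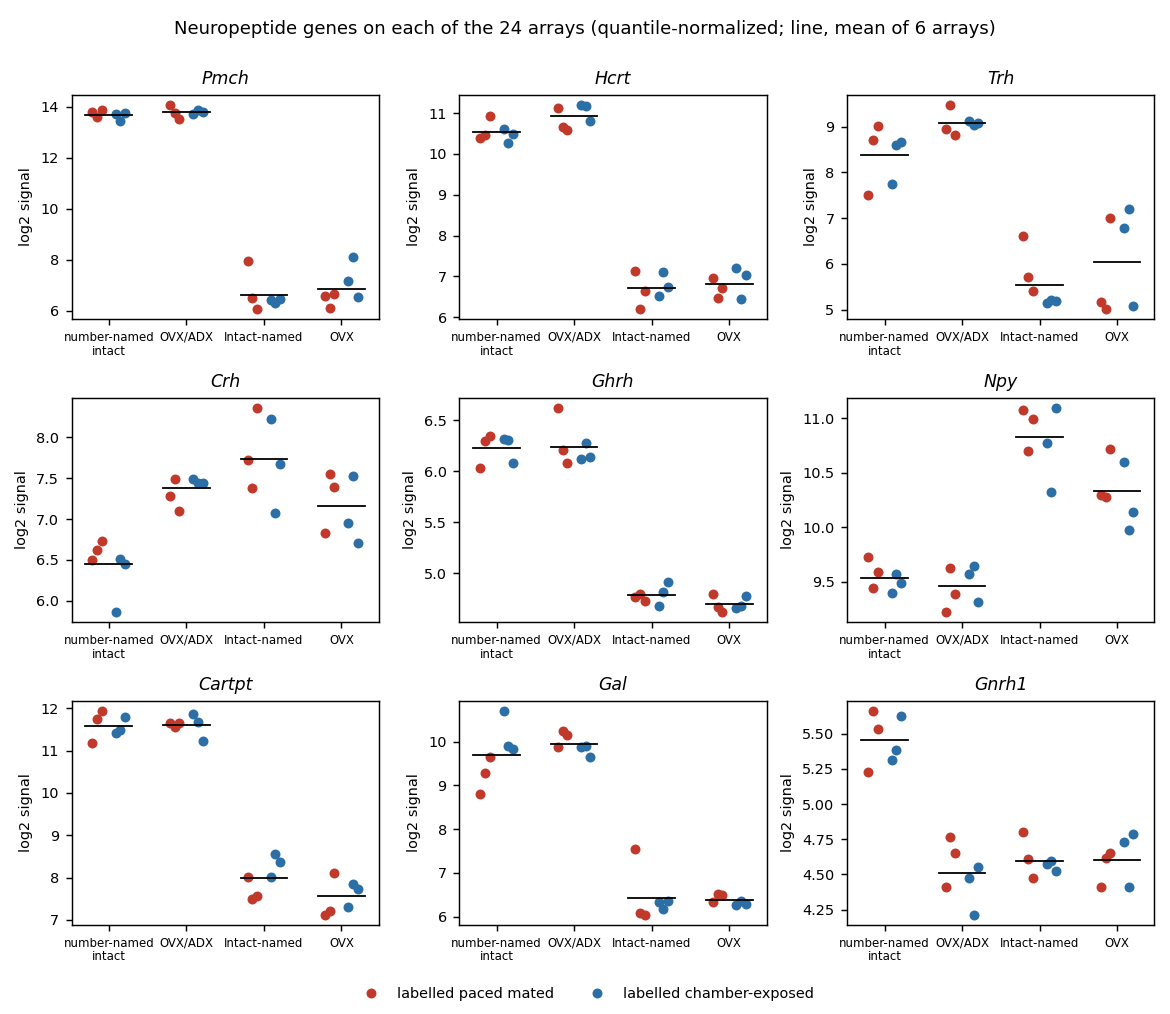
Quantile-normalized log2 signal of the 9 genes on each of the 24 arrays, 1 panel per gene. The arrays are grouped by set and marked as paced mated or chamber-exposed, and lines give the mean of 6 arrays. Pmch lies between 13.44 and 14.07 on the number-named and OVX/ADX arrays, whereas the 12 arrays of the other 2 sets lie between 6.06 and 8.10.

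The number-named and Intact-named arrays carry the same labels for gland state and age, and differ in title and run. Between them, 9 of 9 genes passed an adjusted p of 0.05 in limma, 7 higher and 2 lower on the number-named arrays, where 80.6% of all probe sets tested passed. Gnrh1 and Ghrh, among the 7, were kept by the filter on low signals only through arrays on which they are high, so their direction was partly set by it. A change of at least 2-fold that also passed was found for 8 of the 9 genes and for 22.4% of all probe sets. With that share of the array differing, the pass itself says little about these genes, and their sizes are set against those of all probe sets below. Title set and run cannot be told apart in this comparison.

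**Figure D2:**
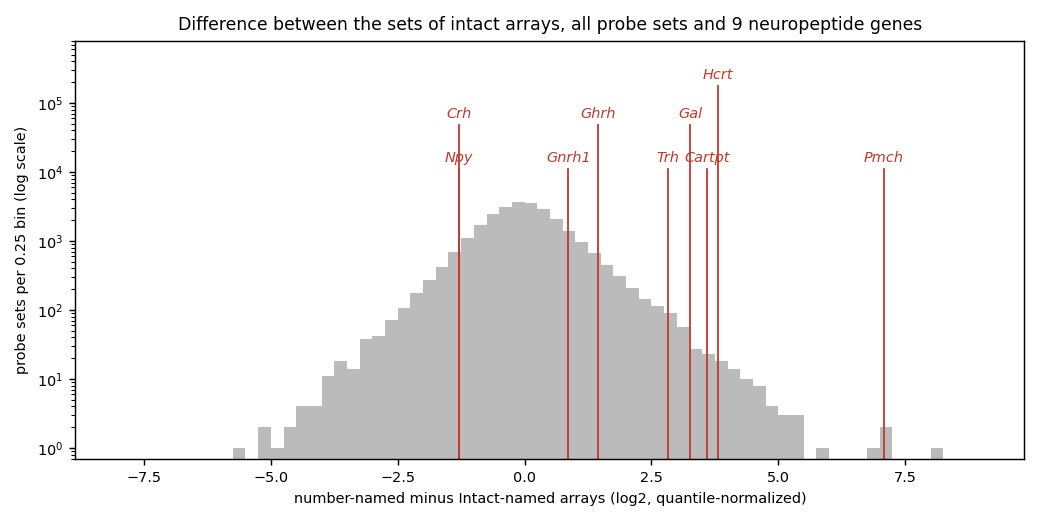
Histogram of the quantile-normalized log2 difference, number-named minus Intact-named arrays (n = 6 and 6), over all probe sets tested, with the 9 genes marked. The differences run from −5.58 to 8.16, and Pmch lies near the upper end at 7.08.

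The genes of the lateral hypothalamus had the largest differences. Pmch had a deposited log2 signal of 13.43, 13.69 and 13.76 (lowest, median and highest of 6 arrays) on the number-named arrays and 13.10, 13.34 and 13.58 on the OVX/ADX arrays. On the Intact-named arrays it was 6.01, 6.42 and 8.01, and on the OVX arrays 6.09, 6.59 and 8.10. The gene was thus among the brightest on 12 arrays, with a median percentile rank of 99.9 in both of those sets, and near the middle of the array on the other 12, with median ranks of 40.1 and 42.5. The Intact-1 array, at 8.01, and the OVX-4 array, at 8.10, stood above the rest of their sets. The quantile-normalized difference, number-named minus Intact-named, was 7.08 ± 0.24 (SE, limma, n = 6 and 6, adjusted p = 5.47e-11), which is 135-fold, and 3 probe sets of all those tested had a difference at least as high, Pmch included.

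Hcrt had a deposited log2 signal of 10.36, 10.57 and 10.99 on the number-named arrays and 10.22, 10.60 and 10.85 on the OVX/ADX arrays. It was 6.13, 6.63 and 7.11 on the Intact-named arrays and 6.45, 6.81 and 7.18 on the OVX arrays. No Intact-named or OVX array came within 3 log2 units of the lowest of the other 12, and neither Intact-1 nor OVX-4 stood apart for Hcrt as it did for Pmch. The quantile-normalized difference between the intact sets was 3.81 ± 0.16 (SE, limma, adjusted p = 2.78e-10), or 14.0-fold, and it was larger in size than those of 99.7% of the probe sets tested.

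The paraventricular genes went in opposite directions. Trh had a deposited log2 signal of 7.71, 8.78 and 9.12 on the number-named arrays and 8.54, 8.75 and 9.16 on the OVX/ADX arrays, against 5.04, 5.25 and 6.56 on the Intact-named and 4.93, 5.94 and 7.19 on the OVX arrays. The quantile-normalized difference between the intact sets was 2.82 ± 0.28 (SE, limma, adjusted p = 8.64e-07), or 7.09-fold. Trh spread over 1.41 log2 units within the number-named set and 2.26 within the OVX set. Among the number-named arrays, 2543 (7.71) and 2526 (7.96) lay below the other 4, and among the OVX arrays OVX-2 (6.77), OVX-4 (7.19) and OVX-5 (6.97) lay above the other 3. Oxytocin (Oxt) and vasopressin (Avp), made by large neurons of the paraventricular and supraoptic nuclei, were low on the same pair of number-named arrays. Oxt was at 8.76 on 2543 and 9.40 on 2526 against 11.39 to 12.03 on the other 4, and Avp was at 9.49 and 9.93 against 11.42 to 12.20. Array 2543 also had a signal of 10.35 for Slc17a7, the vesicular glutamate transporter of cortical and hippocampal neurons, against 6.52 to 8.09 on the other number-named arrays.

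Crh had a deposited log2 signal of 6.11, 6.71 and 6.97 on the number-named arrays and 6.95, 7.27 and 7.32 on the OVX/ADX arrays. On the Intact-named arrays it was 7.08, 7.71 and 8.38, and on the OVX arrays 6.66, 7.13 and 7.52. Crh thus had its highest median in the set with the lowest median of Trh, and every pair of neighbouring sets in its order overlapped. The quantile-normalized difference between the intact sets was −1.29 ± 0.20 (SE, limma, adjusted p = 5.99e-05), or 2.45-fold lower on the number-named arrays.

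The arcuate genes Npy and Ghrh also moved apart. Npy, the feeding peptide that is also made in cortical and hippocampal interneurons, had a deposited log2 signal of 9.50, 9.64 and 9.86 on the number-named arrays and 8.89, 9.17 and 9.33 on the OVX/ADX arrays. It was 10.47, 11.04 and 11.24 on the Intact-named arrays and 10.05, 10.39 and 10.86 on the OVX arrays. Npy was lower by 1.29 ± 0.11 (SE, limma, adjusted p = 2.85e-07) on the quantile-normalized scale on the number-named arrays, the same size as for Crh. Of the 9 cortex and hippocampus markers measured, 7 were lower on the number-named arrays, as Npy and Crh were, and 2 were higher. In this comparison 80.6% of all probe sets passed. The summed quantile-normalized level of the 9 (log2 of the sum) was 10.22 to 11.60 on the number-named and 12.81 to 13.51 on the Intact-named arrays. Of the 4 cortical interneuron markers 3 were also lower on the number-named arrays, Vip by 0.94, Sst by 0.95 and Reln by 0.65, and Calb2 was 2.97 higher. The summed level of these 4 was 12.26 to 12.58 on the number-named and 12.07 to 12.49 on the Intact-named arrays. The part of these cells in the results for Npy and Crh was not tested.

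Ghrh, which drives growth hormone release, was dim throughout. Its deposited log2 signal was 6.22, 6.52 and 6.58 on the number-named arrays and 5.92, 6.04 and 6.48 after OVX/ADX. Intact-named arrays had 4.47, 4.59 and 4.80, and OVX arrays 4.46, 4.53 and 4.65. On these last 12 its median percentile rank was 15.5 and 14.0, below the 20th percentile that served as the filter on low signals, so that it was tested only because of its level on the other 12. The difference between the intact sets was 1.45 ± 0.07 (SE, limma, adjusted p = 8.41e-10) after quantile normalization, or 2.73-fold.

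Cartpt, the precursor of the CART peptides, and Gal, the precursor of galanin, are made in several hypothalamic nuclei and elsewhere. Cartpt had a deposited log2 signal of 11.28, 11.67 and 11.93 on the number-named arrays and 10.85, 11.27 and 11.51 on the OVX/ADX arrays, against 7.46, 8.06 and 8.64 on the Intact-named and 7.12, 7.50 and 8.11 on the OVX arrays. Its quantile-normalized difference between the intact sets was 3.59 ± 0.17 (SE, limma, adjusted p = 8.41e-10), or 12.1-fold. Cartpt kept a higher place than Pmch or Hcrt on the arrays where all 3 were low, with a median percentile rank of 62.9 on the Intact-named and 55.8 on the OVX arrays.

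Gal had a deposited log2 signal of 8.97, 9.83 and 10.77 on the number-named arrays and 9.28, 9.56 and 9.91 on the OVX/ADX arrays. It was 5.99, 6.22 and 7.57 on the Intact-named arrays and 6.26, 6.35 and 6.48 on the OVX arrays. The spread of Gal was wide on the number-named arrays and narrow on the OVX arrays, and Intact-1, at 7.57, stood above the other Intact-named arrays as it did for Pmch. Between the intact sets the quantile-normalized difference was 3.27 ± 0.30 (SE, limma, adjusted p = 4.36e-07), or 9.64-fold.

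Gnrh1, the peptide that governs the pituitary's release of gonadotropins, followed another order. Its deposited log2 signal was 5.46, 5.71 and 5.88 on the number-named arrays, against 4.33, 4.58 and 4.75 after OVX/ADX, 4.24, 4.34 and 4.58 in the Intact-named and 4.17, 4.47 and 4.66 in the OVX set. Only the number-named arrays stood apart, with a median percentile rank of 25.3 against 11.9 to 13.5 in the other 3 sets, and the 6 number-named arrays alone carried the probe set past the filter. The quantile-normalized difference between the intact sets was 0.86 ± 0.08 (SE, limma, adjusted p = 7.15e-07), or 1.82-fold. The second Gnrh1 probe set was below the filter on all 24 arrays and was not tested, with signals of 4.88 to 5.07 (number-named), 4.48 to 4.76 (OVX/ADX), 4.33 to 4.56 (Intact-named) and 4.35 to 4.76 (OVX).

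**Figure D3:**
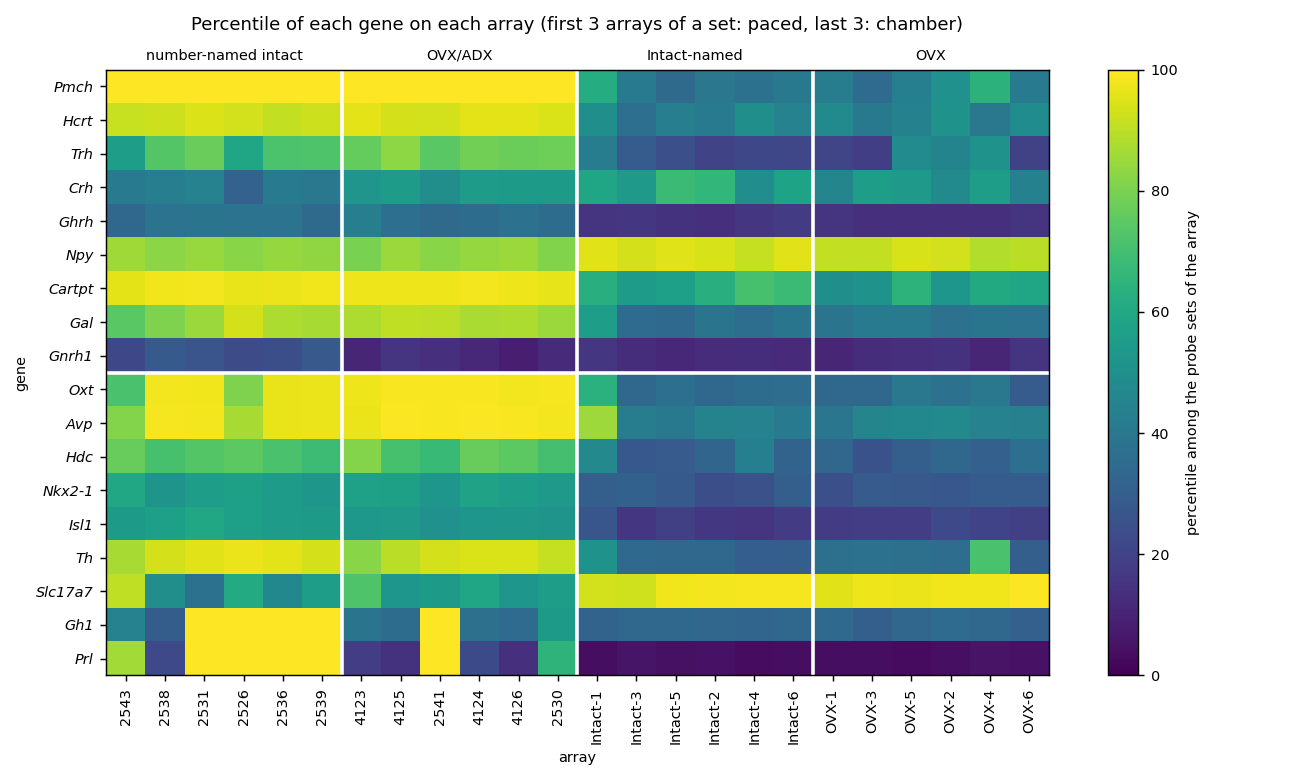
Percentile rank of each gene among all probe sets of the same array, 1 row per gene and 1 column per array, for the 9 genes and for further genes of hypothalamic and other regions. Pmch has a median rank of 99.9 on the number-named and OVX/ADX arrays, but 40.1 on the Intact-named and 42.5 on OVX arrays.

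Between the OVX/ADX and number-named arrays, the 2 sets on which these genes were high, 4 of 9 genes passed in limma, beside 66.1% of all probe sets tested. No gene of the 9 passed with a change of at least 2-fold, which 4.29% of all probe sets did. Crh was 0.93 ± 0.13 higher (SE, adjusted p = 2.89e-05) and Trh 0.71 ± 0.24 higher (SE, adjusted p = 0.0185) on the OVX/ADX arrays after quantile normalization, and Gnrh1 was 0.95 lower with an SE of 0.10 (limma, adjusted p = 2.03e-06). Gnrh1 was kept for testing only through the number-named arrays, where it is high, so its pass was partly set by the filter. Hcrt was 0.40 ± 0.13 higher on the OVX/ADX arrays (SE, limma, adjusted p = 0.0189), but on the deposited scale, where the median probe set was 0.39 lower on those arrays, its difference was −0.046. The Trh difference rested in part on arrays 2543 and 2526, and without them it was 0.33, with an adjusted p of 0.0321 in limma. That of Hcrt was 0.39 without them, near its value with all arrays, although with fewer arrays it no longer passed (limma, adjusted p = 0.0584). Without arrays 2541 and 2530, 4 of 9 genes passed as before. Oxt and Avp were higher on the OVX/ADX arrays in the same comparison, by 1.49 ± 0.54 and 1.32 ± 0.45 (SE, limma, adjusted p = 0.0288 and 0.0208), and the low values of 2543 and 2526 for both genes are given above.

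The other 5 genes did not pass between these sets. Their quantile-normalized differences were 0.26 for Gal (adjusted p = 0.348 in limma), 0.10 for Pmch (0.356 in limma), 0.02 for Cartpt, 0.01 for Ghrh and −0.07 for Npy. On the deposited scale, Pmch, Cartpt and Ghrh had differences of −0.30, −0.40 and −0.36 and each passed, so the direction for these 3 genes turned with the scaling, as did that of Gal (−0.19, not passed).

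Ovariectomy was compared on the Intact-named and OVX arrays, 6 and 6, which share a run. No gene of the 9 passed in limma, where 1.44% of all probe sets tested did, and 3 of the 9 had an unadjusted p under 0.05, beside 21.0% of all probe sets. These were Npy, Crh and Cartpt, all with lower means on the OVX arrays. The difference, OVX minus Intact-named on the deposited scale, was −0.54 ± 0.15 for Npy (SE, limma, adjusted p = 0.0858), −0.62 ± 0.23 for Crh (adjusted p = 0.166) and −0.48 ± 0.20 for Cartpt (adjusted p = 0.198). By an exact two-sided permutation test blocked on mating label, for which the smallest possible p is 0.005, Npy had p = 0.015, Crh p = 0.055 and Cartpt p = 0.07. Of the 9 cortex and hippocampus markers, 1 passed in this comparison, Emx2, a transcription factor of the developing cortex, which was lower on the OVX arrays by 0.56 (adjusted p = 0.0379). The count over all probe sets rested on single arrays: 388 passed, and 0 passed without OVX-4, Emx2 included.

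The remaining 6 genes differed between OVX and Intact-named arrays by −0.06 to 0.52. Trh had the largest SE, with a difference of 0.52 ± 0.46 (SE, limma, adjusted p = 0.534), and its OVX arrays fell into the 3 high and 3 low ones given above. Pmch differed by 0.25 ± 0.37 (SE, limma, adjusted p = 0.735).

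Paced mated and chamber-exposed rats were compared within each set. No gene of the 9 passed in limma in any set, and few probe sets did on the whole array: 0.0444% for number-named, 0.0148% for Intact-named, 0.0% for OVX and 0.0% for OVX/ADX arrays. Pooling both intact sets, or all 24 arrays with the set as a block, also gave no gene of the 9, beside 0.0% of all probe sets in both. The count of genes at an unadjusted p under 0.05 was 1 of 9 on the number-named arrays, beside 9.33% of all probe sets, and 2 of 9 on the Intact-named arrays, beside 8.0%. It was 0 of 9 in each of the other 4 comparisons. Gal, Trh and Cartpt are described next because they are these genes, and their number is near the array-wide share. With 3 arrays against 3, an exact permutation test cannot give a p below 0.1.

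Gal was the gene with an unadjusted p under 0.05 on the number-named arrays. It is in the study's own list of genes for mating, which was drawn from these samples and is not independent evidence, and the direction below follows the sample labels and is opposite to the one in that list. Its deposited log2 signal was 8.97, 9.42 and 9.73 on the paced mated arrays and 10.77, 10.01 and 9.92 on the chamber-exposed arrays. The groups did not overlap, which held for Gal alone of the 9 genes and for 15.4% of all probe sets on these arrays. The paced minus chamber difference was −0.86 ± 0.26 (SE, limma, n = 3 and 3, adjusted p = 0.347; exact permutation p = 0.1, the smallest possible). The lowest and the highest of the 6 values were those of arrays 2543 and 2526, and without them the difference was −0.39 (limma, adjusted p = 0.622).

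Anterior pituitary markers moved the same way as Gal on the number-named arrays. Of 10 listed markers 9 were measured, and all 9 had lower means on the paced mated arrays, with differences on the log2 scale from −5.30 for growth hormone (Gh1) to −0.28 for the growth hormone-releasing hormone receptor (Ghrhr). The study's list gives Gh1, prolactin (Prl), Fshb, Lhb, Tshb, Cga and Gnrhr as higher with paced mating. By the sample labels the direction was opposite for these genes too, as for Gal. The summed signal of the 9 markers (log2 of the sum) was 11.16 to 14.91 on the paced mated and 15.60 to 15.69 on the chamber-exposed arrays, and 1 of the 9 passed in limma. The array scale has no zero, so none of the markers could be at 0. Array 2541, labelled OVX/ADX but titled like the number-named arrays, had the most pituitary signal of the OVX/ADX set, with a summed signal of 15.45 and a Gal signal of 9.82, and Gal on the other 5 OVX/ADX arrays was 9.28 to 9.91. The part of pituitary tissue in the Gal difference was not tested.

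On the Intact-named arrays, Trh and Cartpt had an unadjusted p under 0.05. Trh was at 6.56, 5.66 and 5.36 on the paced mated and at 5.04, 5.08 and 5.13 on the chamber-exposed arrays, and the groups did not overlap, as was so for 13.9% of all probe sets. The paced minus chamber difference for Trh was 0.77 ± 0.28 (SE, limma, adjusted p = 0.569; exact permutation p = 0.1), and without Intact-1 it was 0.42. Cartpt was at 8.07, 7.46 and 7.53 on the paced mated arrays and at 8.05, 8.64 and 8.38 on the chamber-exposed arrays, a difference of −0.67 ± 0.21 (SE, limma, adjusted p = 0.501) with groups that overlapped at 8.05 and 8.07. Intact-1 also carried the differences for Pmch and Gal, which were 0.46 and 0.27 with it and −0.14 and −0.25 without it, and none of these passed. On Intact-1, Oxt was at 8.14 against 5.94 to 6.16 on the other 5 Intact-named arrays, and Avp was at 9.84 against 6.40 to 6.75.

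On the OVX arrays the differences of widest size were those of Pmch, −0.83 ± 0.37 (SE, limma, adjusted p = 1), and Trh, −0.65 ± 0.70 (SE, limma, adjusted p = 1). Both turned on OVX-4, a chamber-exposed array with the highest Pmch (8.10) and Trh (7.19) of its set, and without it the differences were −0.41 and −0.22. The same array had a tyrosine hydroxylase (Th) signal of 8.60, where the OVX arrays ran from 5.75. Non-overlap between paced mated and chamber-exposed arrays held for 6.29% of all probe sets in the OVX set and 6.78% in the OVX/ADX set. On the OVX/ADX arrays the 9 genes differed by −0.28 (Hcrt) to 0.28 (Gal). Over all 24 arrays with the set as a block, the differences ran from −0.18 (Cartpt) to 0.13 (Crh), with adjusted p from 0.969 to 0.996 in limma.

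**Figure D4:**
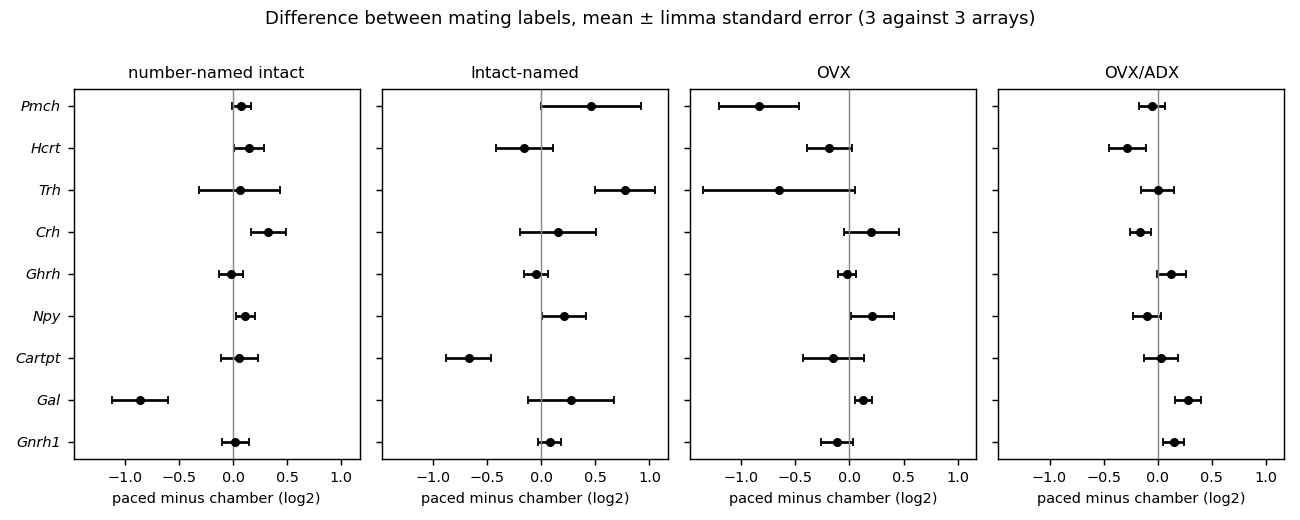
Paced minus chamber difference of the 9 genes on the deposited log2 scale in each of the 4 sets of arrays (n = 3 and 3), with the standard error of the limma fit as bars. Gal on the number-named arrays lies at −0.86, and no gene passed an adjusted p of 0.05 in any set.

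Whether the mating difference itself differed was tested with interaction terms in limma. Between the number-named and Intact-named arrays 0 of 9 genes passed, beside 0.0814% of all probe sets, and 1 of 9 had an unadjusted p under 0.05, beside 10.6% of all probe sets. That gene was Cartpt, at 0.73 ± 0.30 (SE, adjusted p = 0.407), and Gal had the interaction of widest size, −1.14 ± 0.53 (SE, limma, adjusted p = 0.489). Between the OVX and Intact-named arrays 0 of 9 passed, beside 0.0074% of all probe sets, and none had an unadjusted p under 0.05. The interactions of widest size there were −1.42 ± 0.85 for Trh and −1.29 ± 0.67 for Pmch (SE, limma, adjusted p = 1 for both), and without Intact-1 and OVX-4 that of Pmch was −0.28.

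The receptors of these peptides are spread over the brain, and their mRNA marks the cells that respond and not those that make the peptide. Of 18 listed receptor genes 14 were tested, and 9 were higher and 3 lower on the number-named than on the Intact-named arrays, with a median difference of 0.94 after quantile normalization beside −0.03 over all probe sets tested. As 80.6% of all probe sets passed in this comparison, the count says little about receptors. The differences were 1.62 for the Trh receptor (Trhr), 1.29 and 1.09 for the hypocretin receptors Hcrtr2 and Hcrtr1, 1.76 for the Gnrh1 receptor (Gnrhr) and 1.37 for the galanin receptor Galr1. Among the receptors of Npy, Npy1r was lower by 0.36 and Npy5r by 1.30, the direction of Npy itself. The receptor of melanin-concentrating hormone (Mchr1) differed by −0.10 and did not pass, although its peptide had the largest difference of the 9 genes. Gnrhr, Trhr and Ghrhr are made by the anterior pituitary, whose 9 measured markers were all higher on the number-named arrays. Of those markers, Prl had a percentile rank of at most 5.69 on the Intact-named and 5.35 on the OVX arrays. The filter on low signals kept Prl only through the other arrays, so its direction was partly set by the filter. Gnrhr and Ghrhr are themselves among those 9 markers, so the lists overlap. The summed deposited signal of these markers (log2 of the sum) was 11.16 to 15.69 on the number-named and 8.37 to 8.47 on the Intact-named arrays, and the part of pituitary tissue in these differences was not tested.

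Between the OVX/ADX and number-named arrays, 2 of the 14 receptors tested were higher and 6 lower on the OVX/ADX arrays. In this comparison 66.1% of all probe sets passed, so the count says little about receptors. Gnrhr was lower by 2.07 with an SE of 0.55 (limma, adjusted p = 0.00511), Trhr by 0.90 and Hcrtr2 by 0.67, while Galr2 was 0.55 and Galr3 0.43 higher. Of the 9 pituitary markers 5 were lower and none higher in the same comparison, with a median of −1.76 beside 0.01 over all probe sets. Gnrhr and Ghrhr are in both lists and among these 5, so the marker count is not separate from the receptors. Their summed deposited signal reached from 9.59 to 15.45 over the OVX/ADX arrays and was not tested as a part of the receptor differences.

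Other neuropeptide genes differed in both directions. Of 17 tested, 10 were higher and 5 lower on the number-named than on the Intact-named arrays, with a median difference of 0.67, and the share that passed in this and the other lists is to be read beside the 80.6% of all probe sets. Oxt was 4.32 ± 0.60 and Avp 3.88 ± 0.60 higher (SE, limma), Npvf, the precursor of the RFamide-related peptides of the dorsomedial nucleus, 2.30 higher, and Tac1, the precursor of substance P, 1.82 higher. Cholecystokinin (Cck) was lower by 1.51 and somatostatin (Sst) by 0.95, both peptides with many cortical neurons, and proenkephalin (Penk) differed by 0.06 and did not pass. Prodynorphin (Pdyn) was 0.67 higher, and it was the only gene of these 17 that passed between the OVX and Intact-named arrays, where it was lower on the OVX arrays by 0.62 (limma, adjusted p = 0.0344), and it no longer passed without OVX-4.

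Genes for the enzymes and granule proteins that process all neuropeptides moved less. Of 9 tested, 5 were higher and 2 lower on the number-named arrays, with a median of 0.15. Secretogranin II (Scg2), a granule protein, was 1.54 higher, Pcsk1n, an inhibitor of prohormone convertase, 0.57, Pam, the amidating enzyme, 0.55 and chromogranin A (Chga) 0.41, while carboxypeptidase E (Cpe) was lower by 0.28 and Scg5 by 0.13. Most transcription factors and enzymes that mark hypothalamic regions were higher on the number-named arrays. Of 13 tested, 10 were higher and 0 lower, with a median of 1.18. Hdc, which makes histamine in the tuberomammillary nucleus, was 2.56 higher, Isl1 2.56, Six6 1.88, Nkx2-1, a factor of the ventral hypothalamus, 1.85 and Rax 1.61. Lhx9 (−0.07), the region marker listed for the lateral hypothalamus, and Tbx3 (−0.01) did not pass. The median percentile rank of the 14 measured region markers was 20.3 to 28.5 on the Intact-named arrays, near the 20th percentile of the filter on low signals.

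No receptor, processing gene or region marker passed between the OVX and Intact-named arrays, and no receptor, other peptide, processing gene or region marker passed for mating in any set in limma. Of 13 region markers tested, 4 were higher and 3 lower on the OVX/ADX than on the number-named arrays, and 6 did not pass. In that comparison 66.1% of all probe sets passed. Sim1, the factor of paraventricular neurons, was among the higher ones, by 0.86 ± 0.10 (SE, limma, adjusted p = 5.09e-06). Six3 was 0.67 higher there and Rax lower by 0.49. Sim1 and the other region markers describe which tissue an array holds, and were not part of the rule that chose the 9 genes. They were chosen with earlier results of these data known, so they are not an independent check.

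The median percentile rank of Pmch, Hcrt, Cartpt, Trh and Gal split the 24 arrays in 12 and 12 between the shared run and the other runs, and each of these held both mating labels. On the number-named and OVX/ADX arrays every one of these 5 genes had a median rank of at least 72.0, while in the 2 sets of the shared run Trh had median ranks of 23.1 and 33.1, Gal of 37.3 and 38.7, and Hcrt of 43.6 and 45.8. Ghrh split the arrays likewise, at median ranks of 38.0 and 36.1 against 15.5 and 14.0. Npy split them the other way, at 83.8 and 83.2 against 94.6 and 90.9. Crh and Gnrh1 did not split them. Median ranks on number-named, OVX/ADX, Intact-named and OVX arrays were 40.9, 54.5, 58.3 and 50.6 for Crh. For Gnrh1 they were 25.3, 11.9, 12.9 and 13.5. Nkx2-1 split the arrays as Pmch did, at ranks of 51.7 to 59.9 and 52.7 to 57.5 on the first 2 sets and of at most 30.9 and 29.2 on the others.

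Other genes were ranked by how closely their log2 signals followed those of a peptide over the 24 arrays, after the mean of each run was subtracted, among 13078 genes. The measure was Pearson's r, given here as a description because nothing in the labels ties an array to a single rat, and arrays of a run may share a normalization. Pmch was most like Cyp2g1, at 0.87, Prdm16, at 0.76, and Igsf1, at 0.75. These values came mostly from the 12 arrays of the shared run, where r was 0.91, 0.80 and 0.79. Over the 6 number-named arrays it was −0.07, 0.66 and 0.01, and over the 6 OVX/ADX arrays 0.06, −0.87 and 0.23, so that Prdm16 had the opposite sign there. Hcrt was most like Hdc, the histamine enzyme named above, at 0.72, then Bmp4 at 0.69 and Strn at 0.68, and the r of Hdc was 0.14 over the number-named and 0.83 over the OVX/ADX arrays. For Trh the genes were Sh3tc1, at 0.84, Pomgnt2, at 0.76, and Casq2, at 0.76, of which Casq2 had 0.16 over the OVX/ADX arrays. Gal was most like Spata1, at 0.86, Ecel1, at 0.85, and C5h1orf210, at 0.85, and within the number-named arrays alone these 3 reached 0.97, 0.95 and 0.90, against 0.77, 0.93 and 0.26 over the OVX/ADX arrays.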

How the data were processed

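The arrays were processed by the authors, who deposited log2 signals for each probe set. The submitters' processing notes name RMA in Expression Console, whereas the study's methods name GCRMA in GeneSpring, and detection calls were not used here. Groups came from the sample titles and labels. Probe sets were named from the platform annotation: 20832 had 1 symbol, 436 several and 9831 none. After control probe sets were removed, a probe set was kept if 3 or more of the 24 arrays had it at or over their 20th percentile, which left 27035. Differences were fitted with limma 3.58.1 in R 4.3.3 with Benjamini-Hochberg adjustment over all kept probe sets, on deposited signals within a run and on signals quantile-normalized over the 24 arrays between runs, and were tested on simulated data. Single values were also tested by exact permutation in scipy 1.17.1. The genes and the companion lists were chosen with earlier results of these data known. All 9 genes with a probe set were named, together with the 4 genes of highest mean signal and up to 4 passing genes of largest difference in each companion list. Alternatives were no filter or a stricter one, the other scaling, other probe sets, a replicate block, and the leaving out of single arrays or of arrays that stood apart, some of which were chosen after seeing the data. Arrays have no read depth, so their number sets how precise a value is.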

Additional observations from a re-analysis of the deposited data

Results flagged for a closer look

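Single arrays that stood apart from their set were looked for in the 9 genes and 4 sets of 6 arrays, 36 groups in all, by the gap to the nearest array as a share of the whole range. Chance gives such a gap in about 1 in 20 groups, and 4 were found. Pmch on Intact-1 was at 8.01, with the nearest Intact-named array at 6.44, and Gal on the same array was at 7.57, with the nearest at 6.34. Crh on array 2526 was at 6.11, with the nearest number-named array at 6.67. Ghrh on array 4123 of the OVX/ADX set was at 6.48, with the nearest at 6.11.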

How the results depend on the processing

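No gene of the 9 passed for mating, for ovariectomy or for an interaction under any alternative run. The comparison that changed most was OVX/ADX against number-named arrays. On deposited signals without quantile normalization the differences were −0.30 for Pmch, −0.046 for Hcrt, −0.40 for Cartpt and −0.36 for Ghrh, all of the opposite sign to the quantile-normalized ones, Npy passed at −0.51, Trh did not at 0.24, and 6 of 9 genes passed in place of 4. With the methods' plain test and 2-fold limit 0 of 9 passed there, and between the intact sets 8 of 9 did, without Gnrh1 (0.86). Under a 50th percentile filter fewer of the 9 genes were tested, and 7 passed between the intact sets and 3 between OVX/ADX and number-named arrays.

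Counts over all probe sets moved more. Between the intact sets they ran from 6058 (2-fold limit) to 24556 around 21803, and for OVX/ADX against number-named arrays from 1145 to 22851 around 17869. OVX against intact went from 388 to between 0 (without OVX-4) and 484 (stricter filter). For mating, leaving out 1 array gave up to 58 on the number-named arrays in place of 12 (without the chamber-exposed array 2539) and up to 15 on the Intact-named arrays in place of 4 (without Intact-1), and the interaction between the intact sets gave up to 346 in place of 22 (without Intact-5).

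Same-numbered Intact-named and OVX arrays had deviations that correlated at 0.02 to 0.31, with 2 of 6 pairs over 0.1. Of the Intact-named arrays, 1 correlated best with the OVX array of its own number. These values do not settle whether the numbers pair the arrays, and the main fits did not treat them as pairs. With a replicate block, 375 probe sets passed between OVX and intact arrays in place of 388, and Npy had −0.54 with an adjusted p of 0.0536 in limma. The block changed no call among the 9 genes. Leaving out arrays 2543 and 2526, or Intact-1 and OVX-4, was chosen after seeing the data. Dim signals limit Gnrh1 and Ghrh, which passed the filter on 6 and 12 arrays.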

Other observations

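Peptides of the same nucleus were correlated over the arrays of a run, on deposited log2 signals. The pairs were Pmch with Hcrt and Trh with Crh in 3 runs, 6 relations in all, with 100000 permutations in the shared run and exact enumeration in the others, and the planned pairs with Agrp could not be run. For Pmch with Hcrt, Pearson's r was 0.55 on the number-named arrays (exact permutation p = 0.265), 0.23 on the 12 arrays of the shared run (p = 0.463) and 0.72 on the OVX/ADX arrays (p = 0.107), with Spearman's rho of 0.14, 0.26 and 0.60 (p = 0.803, 0.416 and 0.242). Without the 2 arrays farthest from the median, r was −0.26, 0.49 and 0.51. For Trh with Crh, r was 0.66 (exact permutation p = 0.14), −0.04 (p = 0.897) and 0.77 (p = 0.0819), and 0.91, −0.06 and 0.96 without 2 arrays, with rho of 0.71, 0.07 and 0.94 (p = 0.136, 0.836 and 0.0167). No relation passed after adjustment over the 6, and the lowest adjusted p was 0.1, for rho of Trh with Crh on the OVX/ADX arrays.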
